A study of Mus musculus with 21 samples.

Results

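The solute carrier (Slc) genes of the mouse cortex were compared between mice given high-frequency head impacts and sham mice. They were chosen by name, as the rows of the deposited table whose Ensembl identifier has a GENCODE symbol that begins with Slc and a digit. Slc1a2 and Slc1a3, the main glutamate uptake carriers of astrocytes, were left out of the set. This gave 93 genes of the 5544 in the table, where the annotation lists 371 protein-coding genes whose symbol has this form. The rule that left these 5544 genes is not stated in the sources used here. Shares over all genes therefore refer to this table and not to every gene expressed in cortex. Each gene was assigned to 1 of 15 substrate classes by its symbol, and the classes were chosen with earlier results of these data known.

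All animals were male mice, of strain C57BL/6 by their labels and C57Bl/6J in the study's methods, and the table names all 21 libraries WT. The labels give an age of 12 weeks. The HF-HI group (n = 11) received mild closed-head impacts under brief isoflurane anesthesia, repeated daily. The Sham group (n = 10) had the same handling and anesthesia without an impact, so anesthesia was shared by both. Cortex was collected 24 h after the final impact, and 1 library per mouse was made from total RNA with ribosomal RNA removed. Whole cortex holds neurons, glia and vessels together, so fewer cells of a type and less RNA per cell cannot be told apart. The labels number the mice within each group and give no litter, cage or date.

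Solute carriers are membrane proteins that move small molecules across the plasma membrane or the membranes of vesicles and organelles, either down a gradient or coupled to the movement of an ion. In the brain they fill synaptic vesicles with transmitter, clear transmitter from the extracellular space, supply neurons and glia with amino acids and sugars, set the chloride, calcium and proton gradients on which signaling depends, and exchange metabolites between mitochondria and cytosol. The members of a family often share a fold and a substrate, and differ in the cell type or membrane in which they work.

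Each library has 1 variance-stabilized log2 value per gene, and these run from 4.59 to 17.7 over the table. At high counts a difference of 1 is a fold of 2, and at low counts the scale understates a change. Levels were compared between groups and not between genes, because the values are not divided by gene length. Read counts were not analysed here, so the depth behind each value is unknown, and the mouse-to-mouse spread limits the precision (median SD of a gene in its group, 0.104). Differences are given as HF-HI minus Sham, with p-values from limma (two-sided, Benjamini-Hochberg adjusted over all 5544 genes), and a gene is called higher or lower at an adjusted p under 0.05. The p-values set each group difference against the spread between these libraries.

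Of the 93 solute carrier genes, 32 were higher in HF-HI, 19 were lower and 42 did not pass the threshold. Over all genes 66.3% were called, 32.6% higher and 33.6% lower, so the 32 members higher (34.4%) lie near the background, and the 19 lower (20.4%) lie below it. The median difference of the members was 0.027, against -0.0086 over all genes. Differences of more than 0.5 were found in 8 members, all higher in HF-HI, namely vesicular transporters for glutamate, GABA and zinc, carriers for glutamine, GABA and cationic amino acids, and a pair of mitochondrial carriers. The table as a whole leans the same way at this size, with 322 genes over 0.5 (5.81%) and 20 below -0.5 (0.361%). At an absolute difference of at least 0.25, 20 members were called higher and 5 lower, where 17.8% of all genes were higher and 8.04% lower. The 19 lower members lay between -0.28 and -0.14, as the plot of differences by substrate class shows.

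**Figure D1:**
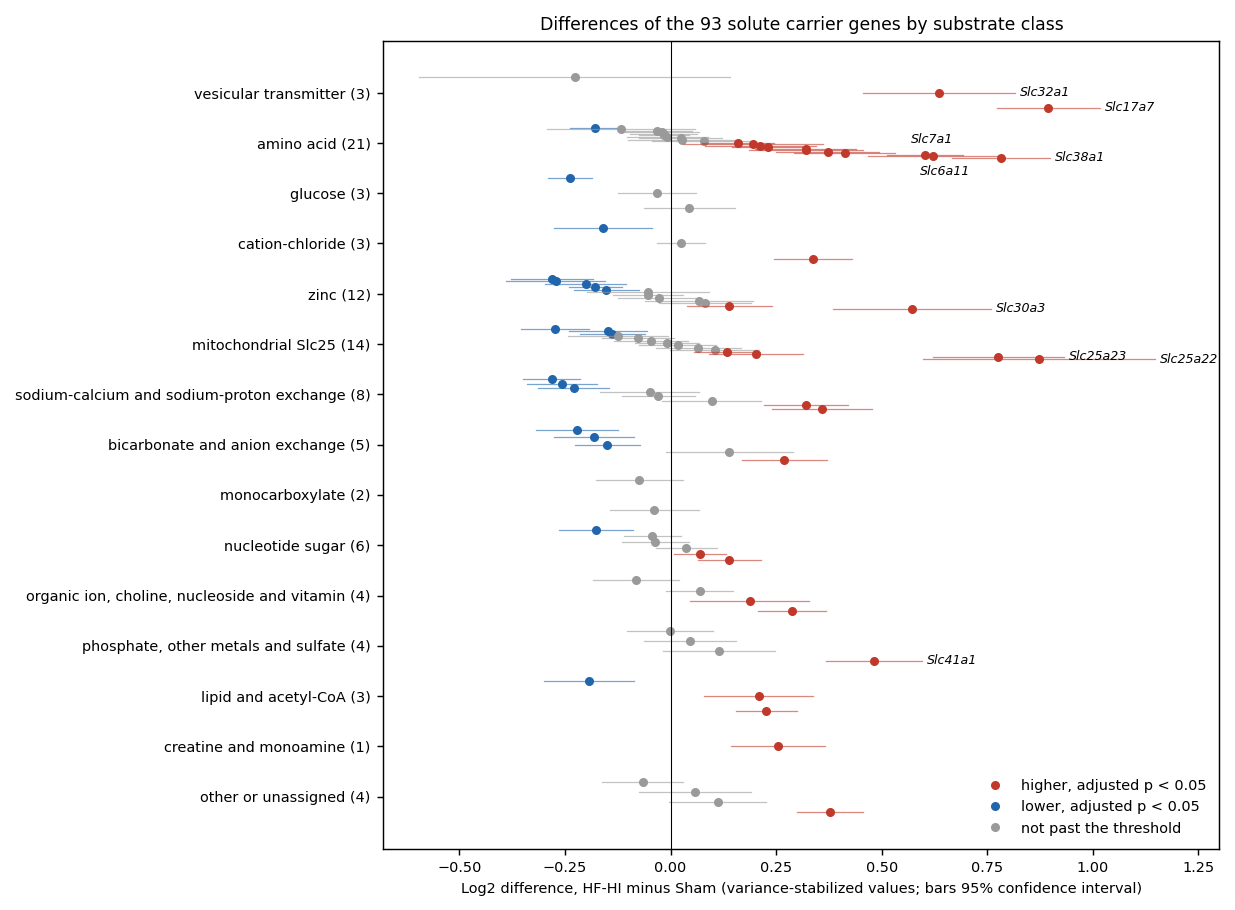
Log2 difference (HF-HI minus Sham, n = 11 and 10) of each of the 93 solute carrier genes on the x axis, by substrate class on the y axis with the number of genes in brackets; points are coloured by call and bars are 95% confidence intervals. The vesicular and amino acid classes hold 5 of the 8 values over 0.5, up to 0.89 for Slc17a7, and no lower gene passes -0.28.

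A feature of the libraries moved with the groups. Within each library, the deviation of a gene from its mean over all libraries followed its exonic GC content, the share of G and C bases in its exons. The slope was 0.096 ± 0.0602 on the log2 scale per 10 percentage points of GC in HF-HI (SD, n = 11) and -0.106 ± 0.0775 in Sham (SD, n = 10). A two-sided permutation test of these slopes gave p = 2e-05, the smallest value that 100000 resamples allow. The slopes ran from -0.0385 to 0.161 in HF-HI and from -0.231 to 0.00582 in Sham, so a few libraries overlapped. When this trend was removed from each library with a lowess curve, 26 members were higher and 21 lower, against 29.2% of genes higher, 31% lower and 60.2% called over the 5539 genes with a GC content. Of the 32 higher members 22 were also called higher without the trend and 10 were not called, and of the 19 lower members 14 were also called lower and 5 were not called. Another 4 members were then called higher and 7 lower. Removing the trend also removes any difference in expression that follows GC content, so values with and without it are given.

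The members followed GC content closely. Across the 93 genes the difference had a Spearman rho of 0.730 with exonic GC content and -0.156 with exonic length, and across the 5539 genes the rho with GC content was 0.480. These are correlations across genes of the same libraries, which are not independent replicates. In the third of the members lowest in GC (37.4% to 44.6%), 1 was higher and 15 were lower. In the third highest in GC (52.8% to 61.9%), 23 were higher and the other 8 were not called. These counts were not made for all genes of the same GC ranges, and all genes also followed GC content (rho 0.480). Whether the members differ in this from other genes of like GC content was therefore not tested. After removal of the trend the rho across the members was 0.273. The HF-HI library with the lowest slope, replicate 9 (-0.0385), was the HF-HI library nearest to Sham in 18 of the 32 higher members, and the Sham library with the highest slope, replicate 8 (0.00582), was the Sham library nearest to HF-HI in 13 of them. The part of GC content in the differences of single members was not tested beyond this removal.

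**Figure D2:**
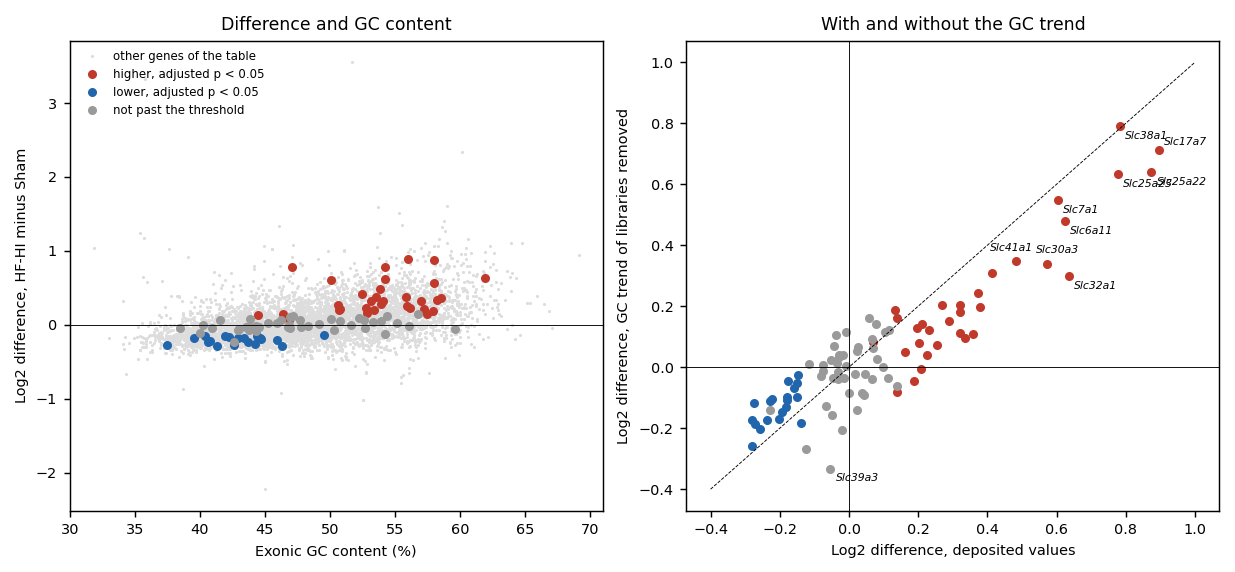
Left, log2 difference (HF-HI minus Sham) against exonic GC content (%) for the 93 solute carrier genes (large points, coloured by call) over the other genes of the table (small points). Right, the members' difference in the deposited values (x axis) against that after the GC trend of each library was removed (y axis; the dashed line marks equal values). Slc38a1 stays at 0.79, Slc32a1 falls from 0.64 to 0.30, and Slc39a3 drops to -0.33.

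The values of HF-HI and Sham did not overlap in 9 members, 6 higher and 3 lower, where 8.71% of all genes were higher and 4.76% lower without overlap. The 6 were Slc17a7, Slc38a1, Slc25a23, Slc7a1, Slc41a1 and Slc22a23, and the 3 were Slc9a7, Slc25a36 and Slc2a13. The coordinates of these genes in GENCODE on GRCm38 (mm10) are chr7:45163949-45176142 on the plus strand for Slc17a7 and chr15:96571418-96642913 on the minus strand for Slc38a1. Slc25a23 lies at chr17:57043711-57059863 (minus), Slc7a1 at chr5:148327410-148399904 (minus), Slc41a1 at chr1:131827493-131848865 (plus) and Slc22a23 at chr13:34179158-34345182 (minus). Of the lower genes, Slc9a7 lies at chrX:20105754-20291807 (minus), Slc25a36 at chr9:97074961-97111157 (minus) and Slc2a13 at chr15:91267696-91573261 (minus). With 1 value per gene, the table does not tell which transcript changed.

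RefSeq promoter windows (GRCm38.p6) were matched to 70 of the 93 members, 24 higher, 16 lower and 30 not called. In 61 of the 70 the 30 bases compared after the start were found in a transcript of the gene. Some starts lay far from the GENCODE 5′ end, such as those of the lower members Slc39a10 (32924 bases) and Slc4a7 (16505 bases). The motif counts include these windows, and that of Slc4a7 holds a TATAAA. The 250 bases before the transcription start are shown for 5 of the 9 members without overlap, 3 higher and 2 lower, those whose RefSeq start lies within 30 bases of the GENCODE 5′ end, as examples of what the motif counts rest on. Capitals mark matches to the GC box GGGCGG, bound by Sp1 family factors, and to the CCAAT box, on either strand, and each run is written 5′ to 3′ on the strand of the gene. The windows are chr7:45163671-45163920 (plus) for Slc17a7, chr17:57059864-57060113 (minus) for Slc25a23, chr5:148399905-148400154 (minus) for Slc7a1, chrX:20291828-20292077 (minus) for Slc9a7 and chr15:91573262-91573511 (minus) for Slc2a13.
Slc17a7: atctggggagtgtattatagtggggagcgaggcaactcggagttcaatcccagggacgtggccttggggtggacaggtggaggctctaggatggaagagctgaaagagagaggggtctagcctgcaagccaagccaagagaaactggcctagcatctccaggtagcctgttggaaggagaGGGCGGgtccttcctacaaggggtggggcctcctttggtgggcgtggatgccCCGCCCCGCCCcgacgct
Slc25a23: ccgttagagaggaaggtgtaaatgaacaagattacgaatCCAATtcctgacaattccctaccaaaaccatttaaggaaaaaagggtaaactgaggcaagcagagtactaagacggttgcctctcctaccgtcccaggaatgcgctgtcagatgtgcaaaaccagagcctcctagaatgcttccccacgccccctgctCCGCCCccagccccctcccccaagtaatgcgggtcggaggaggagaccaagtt
Slc7a1: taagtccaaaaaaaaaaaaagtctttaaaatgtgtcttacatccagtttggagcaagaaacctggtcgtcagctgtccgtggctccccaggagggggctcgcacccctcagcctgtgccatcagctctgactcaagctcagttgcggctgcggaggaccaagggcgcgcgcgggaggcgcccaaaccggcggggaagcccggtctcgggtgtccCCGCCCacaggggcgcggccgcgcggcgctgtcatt
Slc9a7: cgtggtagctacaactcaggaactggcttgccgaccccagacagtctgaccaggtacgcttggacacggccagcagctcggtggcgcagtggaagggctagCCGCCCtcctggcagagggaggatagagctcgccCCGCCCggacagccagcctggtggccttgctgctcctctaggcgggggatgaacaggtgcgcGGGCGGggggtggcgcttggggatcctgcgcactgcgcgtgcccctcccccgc
Slc2a13: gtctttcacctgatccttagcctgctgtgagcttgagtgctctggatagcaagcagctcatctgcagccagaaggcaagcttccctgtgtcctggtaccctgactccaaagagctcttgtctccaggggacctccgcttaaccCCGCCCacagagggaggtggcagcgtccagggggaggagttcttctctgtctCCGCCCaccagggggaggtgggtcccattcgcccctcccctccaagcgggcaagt

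Each of the 5 windows holds a GC box, 3 in Slc17a7, 3 in Slc9a7, 2 in Slc2a13 and 1 each in Slc25a23 and Slc7a1, and Slc25a23 also has a CCAAT box. The same motif stood in 62.5% of the windows of higher members (15 of 24), 43.8% of those of lower members (7 of 16) and 64.7% of 4329 windows over the table. CCAAT was found in 41.7% of higher, 31.2% of lower and 35.1% of all windows. TATAAA was found in 4.17%, 18.8% and 5.11%, and the E-box CACGTG in 4.17%, 12.5% and 9.17%. The cAMP response element TGACGTCA stood in 0 windows of higher members, 1 of lower members and 3.58% of all. Both strands were searched, and adjacent matches could overlap. The median GC content of the 250 bases was 62.4% in higher members, 62.6% in lower members and 62.4% over the table, while the exonic GC content had medians of 54.0% over all 32 higher members, 42.9% over all 19 lower members and 47.6% over the table.

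The largest difference among the members was that of a vesicular glutamate transporter. Slc17a7 (VGLUT1), which loads glutamate into the synaptic vesicles of most cortical excitatory neurons, ran from 12.10 to 12.55 in Sham (median 12.39) and from 13.11 to 13.42 in HF-HI (median 13.26). All 11 HF-HI mice lay above all 10 Sham mice. The means were 12.35 ± 0.179 (SD, n = 10) and 13.24 ± 0.101 (SD, n = 11), a difference of 0.89 ± 0.059 (SE; limma adjusted p = 8.88e-11). With the GC trend removed it was 0.71, again without overlap between the groups.

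Slc17a6 (VGLUT2), the vesicular glutamate transporter of thalamic and many subcortical neurons, did not pass the test. Its values ran from 8.16 to 9.82 in Sham (median 8.77) and from 7.997 to 9.13 in HF-HI (median 8.53), and 8 HF-HI mice lay inside the Sham range. The difference was -0.23 (95% confidence interval -0.59 to 0.14, limma adjusted p = 0.264), or -0.14 without the GC trend, and its SD was 0.476 in Sham and 0.424 in HF-HI. On this scale the interval lies below the difference of Slc17a7. The scale understates a change at low counts and the counts of Slc17a6 are unknown, so an equal fold change is not excluded. Within each mouse, Slc17a7 minus Slc17a6 ran from 2.59 to 4.34 in Sham and from 4.04 to 5.32 in HF-HI. The difference was 1.12, or 0.85 without the GC trend. This pair was formed after the values had been seen and is given as a description.

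Slc32a1 (VGAT), the vesicular carrier for GABA and glycine in inhibitory neurons, ran from 8.16 to 8.98 in Sham (median 8.62) and from 8.86 to 9.66 in HF-HI (median 9.21). Of the 11 HF-HI mice 10 lay above the highest Sham mouse. The difference was 0.64 ± 0.0871 (SE; limma adjusted p = 1.5e-06), and 0.30 with the GC trend removed (adjusted p = 0.00171). Slc32a1 had the highest exonic GC content of the members, 61.9%. The 3 vesicular members had a median difference of 0.64, and Slc17a7 and Slc32a1 were called both in the deposited values and after the GC trend was removed.

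Markers of the cell types that use these transporters moved unequally. All 5 markers of excitatory neurons in the list were measured and 4 were higher, with a median difference of 0.54, and Tbr1 (1.02) and Nrgn (1.32) did not overlap between the groups. Their mean level ran from 10.2 to 10.6 in Sham and from 10.9 to 11.3 in HF-HI. Of 6 markers of inhibitory neurons 4 were measured and 1 was higher, Sst (0.63), with a median of -0.039. Gad1 and Gad2, which make GABA, had differences of -0.097 and -0.010 and were not called. Slc32a1 minus Gad1, a pair formed after the values had been seen, ran from -3.83 to -3.09 in Sham and from -3.09 to -2.37 in HF-HI, a difference of 0.73, or 0.40 without the GC trend. Of 6 pan-neuronal markers 5 were higher, with a median of 0.15. Without the GC trend all 5 excitatory markers were higher (median 0.49), Sst was still higher (0.44), and of the pan-neuronal markers 4 were higher and 1 lower (median 0.25). The part of a change in cell composition in the values of the transporters was not tested.

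Among 9 genes that make, recycle or package the same transmitters, 3 were higher and 3 lower, with a median of -0.010. Syp, a synaptic vesicle membrane protein, was 0.55 higher, and Glud1, which converts glutamate to 2-oxoglutarate, was 0.29 lower on the log2 scale. Without the GC trend 2 of the 9 were higher and 2 lower, and these differences were 0.48 for Syp and -0.28 for Glud1, both still called.

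**Figure D3:**
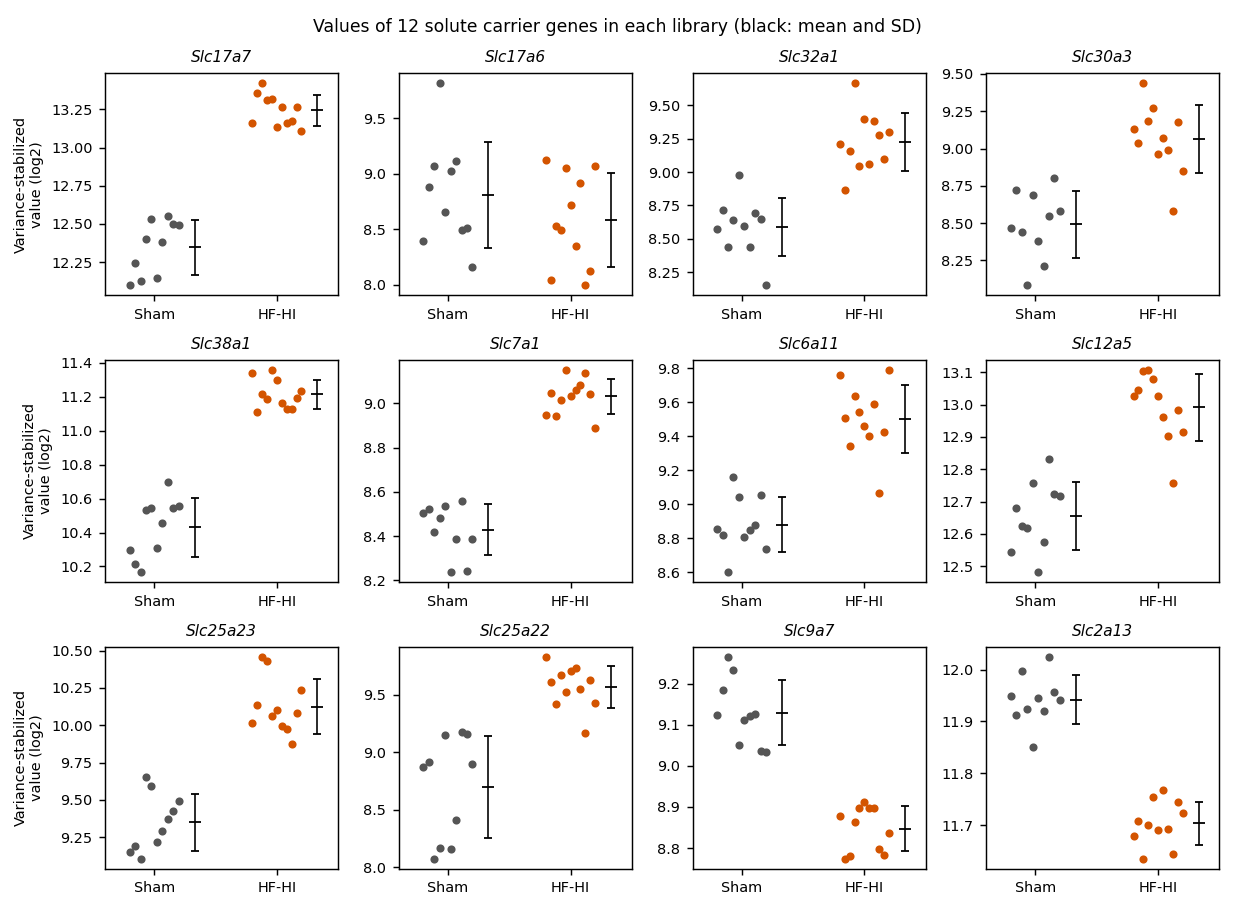
Variance-stabilized values (log2, y axis) of 12 solute carrier genes in each of the 10 Sham and 11 HF-HI libraries, 1 point per mouse, with the group mean and SD in black. Slc17a7, Slc38a1, Slc7a1, Slc25a23, Slc9a7 and Slc2a13 show no overlap between the groups, Slc17a6 overlaps almost throughout, and 4 Sham libraries of Slc25a22 lie at 8.07 to 8.41 below the other Sham libraries.

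The amino acid carriers held more higher than lower members. Of 21 members 11 were higher (52.4%), 1 was lower (4.76%) and 9 were not called, with a median difference of 0.16. Over all genes 32.6% were higher and 33.6% lower. With the GC trend removed 9 were higher (42.9%) and 3 lower (14.3%), against 29.2% and 31% of all genes. The median exonic GC content was 50.7% in this class and 47.6% over the table, and its part in these counts was not tested. Of the 7 Slc6 genes measured, sodium- and chloride-coupled carriers for GABA, proline, taurine and other solutes, 6 were higher and 1 was not called, counting the creatine carrier Slc6a8, which belongs to another class. With the trend removed 3 of the 7 were higher and 4 were not called. The median exonic GC content of the 7 was 52.5%.

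Slc38a1 (SNAT1), which brings glutamine into neurons as a precursor of glutamate and GABA, ran from 10.17 to 10.70 in Sham (median 10.49) and from 11.11 to 11.36 in HF-HI (median 11.19). The groups did not overlap, and their SDs were 0.174 and 0.0861. The difference was 0.78 ± 0.0562 (SE; limma adjusted p = 1.89e-10). Its exonic GC content of 47.1% is near the median of the table (47.6%), and without the GC trend the difference was 0.79, so Slc38a1 was the highest of the members after that removal.

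Slc7a1 (CAT1), a carrier for arginine and lysine at the plasma membrane, also separated the groups. It ran from 8.24 to 8.56 in Sham (median 8.45) and from 8.89 to 9.15 in HF-HI (median 9.04). The difference was 0.60 ± 0.0436 (SE; limma adjusted p = 1.95e-10), and 0.55 without the GC trend.

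Slc6a11 (GAT-3), which clears GABA mainly into astrocytes, ran from 8.60 to 9.16 in Sham (median 8.85) and from 9.07 to 9.79 in HF-HI (median 9.51). Of the HF-HI mice 10 lay above all Sham mice, and replicate 9 lay inside the Sham range. The difference was 0.62 ± 0.0753 (SE; limma adjusted p = 2.81e-07), and 0.48 without the GC trend. Of 6 astrocyte markers 2 were higher and 1 lower, with a median of -0.021, and the mean level of the list ran from 9.92 to 10.3 in Sham and from 9.98 to 10.2 in HF-HI. Gja1, a gap junction protein of astrocytes, was 0.39 higher and S100b 0.20 lower. Without the GC trend 1 of the 6, Gja1 (0.45), was higher and 2 were lower, S100b (-0.22) and Aldh1l1 (-0.20). The part of astrocyte abundance in the values of Slc6a11 was not tested.

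The lower amino acid carrier was Slc36a4, a lysosomal and plasma membrane carrier for proline and tryptophan. It ran from 10.15 to 10.36 in Sham (median 10.29) and from 10.03 to 10.16 in HF-HI (median 10.08), and 10 HF-HI mice lay below all Sham mice. Its difference was -0.18 ± 0.0294 (SE; limma adjusted p = 1.55e-05), and -0.11 without the GC trend. The 9 members that were not called ran from -0.12 to 0.079. The exons of Slc1a1 and Slc7a4, both among these 9, overlap those of a gene on the opposite strand over 31.9% and 13.3% of their length. Per the study's methods the library kit was stranded. The counting is not stated to have used strand, so the values of Slc1a1 and Slc7a4 are uncertain. Without the GC trend Slc7a4 turned from 0.024 to -0.14 and was called lower (limma adjusted p = 0.00311).

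Of 9 genes listed as partners of amino acid carriers 6 were measured, and 4 were higher and 2 lower, with and without the GC trend. Arl6ip5, a protein that binds and restrains the neuronal glutamate carrier, was 0.55 higher, or 0.51 without the trend. The 6 include the glutamate carriers left out of the set, which differed by 0.073 for Slc1a2 (adjusted p = 0.0323) and -0.17 for Slc1a3 (adjusted p = 0.00186, both limma). Without the trend these were 0.11 and -0.11, both still called.

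The glucose carriers of the blood-brain barrier and of neurons did not pass the test, and a related inositol carrier was lower. Slc2a1 (GLUT1), the glucose carrier of brain endothelium and astrocytes, ran from 8.61 to 9.02 in Sham (median 8.85) and from 8.65 to 8.99 in HF-HI (median 8.90). Its difference was 0.045 (95% confidence interval -0.063 to 0.15, adjusted p = 0.459), and its sign turned under 3 alternatives, to -0.092 with the GC trend removed, -0.098 with the replicate number also in the fit and -0.0074 with the library medians centred. Slc2a3 (GLUT3), the main neuronal glucose carrier, ran from 10.52 to 10.92 in Sham (median 10.69) and from 10.55 to 10.79 in HF-HI (median 10.68), a difference of -0.032 (95% confidence interval -0.12 to 0.060, adjusted p = 0.534), or -0.039 without the GC trend. On this scale both intervals exclude a difference as large as that of Slc17a7 in either direction. The counts behind these values are unknown, so the same is not shown for fold changes. Slc2a13 (HMIT), which belongs to the glucose carrier family and carries myo-inositol with protons, was lower. It ran from 11.85 to 12.02 in Sham (median 11.94) and from 11.64 to 11.77 in HF-HI (median 11.70), without overlap, and its difference was -0.24 ± 0.0249 (SE; limma adjusted p = 3.73e-08), or -0.17 without the GC trend. Of the 8 partner genes listed for glucose uptake 3 were measured and 2 were higher, the AMP-activated kinase subunits Prkaa1 (0.097) and Prkaa2 (0.12). Both were still called with the trend removed, at 0.22 and 0.24.

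The cation-chloride cotransporters, which set the chloride gradient that decides the sign of GABA currents, had 1 member higher and 1 lower in the deposited values. Slc12a5 (KCC2), the potassium-chloride cotransporter that keeps neuronal chloride low, ran from 12.48 to 12.83 in Sham (median 12.65) and from 12.76 to 13.11 in HF-HI (median 13.03). Only HF-HI replicate 9 lay inside the Sham range. The difference was 0.34 ± 0.0448 (SE; limma adjusted p = 1.03e-06), and it shrank to 0.096 without the GC trend (adjusted p = 0.003). Slc12a2 (NKCC1), the sodium-potassium-chloride cotransporter that loads cells with chloride, ran from 10.49 to 11.05 in Sham (median 10.78) and from 10.46 to 10.71 in HF-HI (median 10.59). Most HF-HI mice lay inside the Sham range, 1 of 11 lay below it, and all 11 lay below the Sham median. Its difference was -0.16 ± 0.0561 (SE; limma adjusted p = 0.0151), and -0.067 without the GC trend, where it was not called (adjusted p = 0.249).

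Slc12a5 minus Slc12a2 within each mouse, formed after the values had been seen, ran from 1.57 to 2.24 in Sham and from 2.11 to 2.62 in HF-HI. The difference was 0.50 in the deposited values and 0.16 without the GC trend. The exonic GC content of the pair is 58.3% for Slc12a5 and 42.3% for Slc12a2. Among 10 partner genes, the kinases that phosphorylate these cotransporters and the sodium pump subunits that drive them, 5 were higher and 2 lower, and 5 and 3 without the GC trend. Wnk2, a chloride-sensitive kinase, was 0.79 higher, Atp1b2, the glial beta subunit of the sodium pump, 0.69 higher, and Wnk3, which acts on the same cotransporters, 0.24 lower. With the GC trend removed these 3 differences were 0.49, 0.59 and -0.12, each still called.

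Among the zinc carriers, that of synaptic vesicles was higher and 5 others were lower. Of 12 members 2 were higher (16.7%), 5 lower (41.7%) and 5 not called, with a median of -0.054. Over all genes 32.6% were higher and 33.6% lower. Without the GC trend 1 zinc carrier was higher (8.33%) and 6 were lower (50%), against 29.2% and 31% of all genes. Slc30a3 (ZnT3), which fills the vesicles of a class of glutamatergic terminals with zinc, ran from 8.09 to 8.80 in Sham (median 8.51) and from 8.58 to 9.44 in HF-HI (median 9.07). Of 11 HF-HI mice 10 lay above all Sham mice, and replicate 9 lay inside the Sham range. The difference was 0.57 ± 0.0907 (SE; limma adjusted p = 9.99e-06), and 0.34 without the GC trend. Slc39a7 (ZIP7), which releases zinc from the endoplasmic reticulum, was 0.14 higher (adjusted p = 0.0144), and its sign turned to -0.080 without the GC trend, where it was not called.

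The 5 lower zinc carriers included efflux carriers of the Slc30 family and import carriers of the Slc39 family. Slc30a4 (ZnT4), which moves zinc into endosomes and lysosomes, ran from 10.80 to 11.21 in Sham (median 11.06) and from 10.54 to 10.86 in HF-HI (median 10.79), a difference of -0.28 ± 0.0472 (SE; limma adjusted p = 1.96e-05). Slc39a12 (ZIP12), a plasma membrane zinc importer of the brain, ran from 8.58 to 8.95 in Sham (median 8.77) and from 8.19 to 8.70 in HF-HI (median 8.51), a difference of -0.27 ± 0.0569 (SE; limma adjusted p = 0.000232). In both, the groups overlapped while all 11 HF-HI mice lay below the Sham median. Slc39a9 (ZIP9) differed by -0.20 (adjusted p = 0.000634), Slc30a9 by -0.18 (adjusted p = 2.39e-05) and Slc39a10 (ZIP10) by -0.15 (adjusted p = 0.00101). All 5 were also called lower without the GC trend, at differences from -0.19 to -0.098.

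The other 5 zinc carriers were not called in the deposited values. Slc30a1 (ZnT1), the zinc exporter of the plasma membrane, differed by 0.067 (adjusted p = 0.343), Slc30a5 by -0.028 (adjusted p = 0.612), Slc30a7 by -0.054 (adjusted p = 0.241) and Slc39a14 (ZIP14) by 0.081 (adjusted p = 0.179). Without the GC trend these 4 differed by 0.092, 0.041, 0.025 and 0.026, none of them called. Among the fits with 1 library left out, Slc39a14 was called without HF-HI replicate 9, at 0.11 (adjusted p = 0.0275, limma). Slc39a3 (ZIP3), an importer at the plasma membrane, ran from 8.64 to 9.19 in Sham (median 8.89) and from 8.43 to 9.04 in HF-HI (median 8.92), a difference of -0.054 (adjusted p = 0.509). With an exonic GC content of 59.6%, it moved to -0.33 when the GC trend was removed (adjusted p = 2.89e-06), without overlap between the groups. Of 6 genes of zinc buffering and vesicle sorting 4 were measured, and Mt1, a metallothionein that binds zinc, was 0.37 higher, or 0.22 without the GC trend. In that fit 1 of the 4 was higher and 1 lower, against 2 and 0 in the deposited values.

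The mitochondrial Slc25 carriers exchange metabolites, nucleotides and phosphate across the inner membrane. Of 14 members 4 were higher (28.6%), 3 lower (21.4%) and 7 not called, with a median of 0.0044. The shares over all genes were 32.6% and 33.6%. In the fit without the GC trend 3 were higher and 3 lower (21.4% each), against 29.2% and 31% of all genes. Both large differences were in carriers linked to glutamate and calcium. Slc25a22 (GC1), which brings glutamate into mitochondria, ran from 8.07 to 9.18 in Sham (median 8.88) and from 9.17 to 9.83 in HF-HI (median 9.61). Its Sham values spread widely, and the 4 lowest, replicates 3, 4, 6 and 7, lay between 8.07 and 8.41, below the other 6 (8.87 to 9.18). Those 4 are also the Sham libraries with the lowest GC slopes (-0.231 to -0.159). With the GC trend removed they still stood apart, at 8.25 to 8.60 against 8.96 to 9.19 in the other 6. The difference was 0.87 ± 0.133 (SE; limma adjusted p = 6.19e-06), and 0.64 without the GC trend, where the groups did not overlap. That separation was narrow, with Sham replicate 9 at 9.193 and HF-HI replicate 9 at 9.198.

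Slc25a23 (SCaMC-3), a calcium-regulated carrier that exchanges ATP-magnesium for phosphate, ran from 9.11 to 9.65 in Sham (median 9.33) and from 9.87 to 10.46 in HF-HI (median 10.08), without overlap. Its difference was 0.78 ± 0.0754 (SE; limma adjusted p = 1.34e-08), and 0.63 without the GC trend. Slc25a44, a carrier of branched-chain amino acids, was 0.20 higher (adjusted p = 0.00237), and 0.079 without the GC trend, where it was not called. Slc25a36, a pyrimidine nucleotide carrier, ran from 10.33 to 10.67 in Sham (median 10.49) and from 10.11 to 10.31 in HF-HI (median 10.24). The groups did not overlap in the deposited values and did without the GC trend, where its difference of -0.27 shrank to -0.12 (adjusted p = 0.0116). It has the lowest exonic GC content of the members, 37.4%.

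Slc25a4 (ANT1), the ADP/ATP carrier of heart, muscle and brain, was lower by a small amount. It ran from 12.86 to 13.10 in Sham (median 12.99) and from 12.71 to 12.97 in HF-HI (median 12.87), with a difference of -0.14 ± 0.0376 (SE; limma adjusted p = 0.0027), and -0.18 without the GC trend. Slc25a46, a protein of the outer membrane that takes part in mitochondrial fission, differed by -0.15 (adjusted p = 0.00598), and by -0.026 without the trend, where it was not called. Of 12 other mitochondrial transport genes 9 were measured, and 7 were lower and 2 were not called, with a median of -0.19. The lowest of them were the pyruvate carrier subunit Mpc2 (-0.33), the outer membrane channel Vdac3 (-0.33) and the outer membrane protein Mtch1 (-0.21). After removal of the GC trend 6 were lower and 1, Micu3, was higher. Mtch1 was then the lowest at -0.41, Mpc2 was at -0.23 and Vdac3 at -0.22 was not called (limma adjusted p = 0.0693).

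The exchangers for sodium with calcium or protons had 2 higher (25%), 3 lower (37.5%) and 3 not called of 8 members. The shares over all genes were 32.6% and 33.6%. Without the GC trend 1 was higher (12.5%) and 4 were lower (50%), against 29.2% and 31% of all genes. Slc8a2 (NCX2), a sodium-calcium exchanger of neurons and glia, ran from 10.47 to 10.97 in Sham (median 10.67) and from 10.90 to 11.28 in HF-HI (median 11.02), a difference of 0.36 ± 0.0573 (SE; limma adjusted p = 1.07e-05) that fell to 0.11 without the GC trend and was then not called (adjusted p = 0.0676). Its paralog Slc8a1 (NCX1) ran from 11.62 to 11.87 in Sham (median 11.74) and from 11.38 to 11.69 in HF-HI (median 11.50), a difference of -0.23 ± 0.0409 (SE; limma adjusted p = 4.01e-05), or -0.11 without the trend. Both sets of HF-HI values lay on one side of their Sham median in all 11 mice. Slc8a2 minus Slc8a1, a pair formed after the values had been seen, was -1.04 ± 0.231 in Sham (SD, n = 10) and -0.45 ± 0.183 in HF-HI (SD, n = 11), a difference of 0.59, or 0.22 without the trend. Slc24a3 (NCKX3), which exchanges sodium for calcium and potassium, was 0.32 higher (adjusted p = 4.72e-06) and 0.18 without the trend.

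Slc9a7 (NHE7), a sodium-proton exchanger that helps to set the pH of the trans-Golgi network, was lower. It ran from 9.03 to 9.26 in Sham (median 9.12) and from 8.77 to 8.91 in HF-HI (median 8.86), without overlap, and the difference was -0.28 ± 0.0328 (SE; limma adjusted p = 1.66e-07), or -0.26 without the GC trend, where it was still called. Of the 5 plasma membrane calcium pumps and exchanger cofactors listed as partners, Atp2b2 was 0.40 higher, or 0.30 without the trend, and the other 4 were not called with or without it.

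Among the 5 bicarbonate carriers of the Slc4 family, which buffer the pH of neurons and glia, 1 was higher (20%) and 3 were lower (60%). Over all genes these shares were 32.6% and 33.6%. Without the GC trend 1 was higher and 1 lower (20% each), against 29.2% and 31% of all genes. Slc4a8 (NDCBE), a sodium-driven exchanger of chloride and bicarbonate at glutamatergic terminals, ran from 10.33 to 10.72 in Sham (median 10.49) and from 10.61 to 10.92 in HF-HI (median 10.83), a difference of 0.27 ± 0.049 (SE; limma adjusted p = 5e-05), and 0.20 without the GC trend. The lower members were Slc4a7 (NBCn1) at -0.22 (adjusted p = 0.000279), Slc4a4 (NBCe1), the bicarbonate cotransporter of astrocytes, at -0.18 (adjusted p = 0.00145) and Slc4a10 (NCBE) at -0.15 (adjusted p = 0.0012). Without the trend Slc4a4 was still called, at -0.13, while Slc4a7 at -0.11 and Slc4a10 at -0.052 were not.

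The remaining classes were small. Slc41a1, a magnesium carrier of the plasma membrane, ran from 8.10 to 8.59 in Sham (median 8.42) and from 8.72 to 9.08 in HF-HI (median 8.89), without overlap, and a difference of 0.48 ± 0.055 (SE; limma adjusted p = 1.31e-07), or 0.35 without the GC trend. Slc48a1 (HRG1), a heme carrier of endosomes and lysosomes, ran from 9.33 to 9.61 in Sham (median 9.41) and from 9.57 to 9.89 in HF-HI (median 9.80), a difference of 0.38 ± 0.0376 (SE; limma adjusted p = 1.94e-08), or 0.20. In Slc48a1, HF-HI replicate 9 alone lay inside the Sham range. Slc22a23, a member of the organic ion carrier family whose substrate is not established, ran from 9.17 to 9.55 in Sham (median 9.37) and from 9.58 to 9.73 in HF-HI (median 9.68), without overlap, a difference of 0.29 ± 0.0385 (SE; limma adjusted p = 1.1e-06), or 0.15 without the trend.

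Slc22a17, which binds the siderophore carrier lipocalin-2, was 0.19 higher (adjusted p = 0.0188) and changed sign to -0.044 without the trend. The fatty acid carriers Slc27a4 and Slc27a1 were 0.23 (adjusted p = 7.22e-06) and 0.21 (adjusted p = 0.00542) higher, and 0.039 and -0.0048 without the trend, neither called. Slc33a1, which brings acetyl-CoA into the endoplasmic reticulum, was lower at -0.19 (adjusted p = 0.00214), and was still called at -0.15. The creatine carrier Slc6a8 was 0.25 higher (adjusted p = 0.00028) and 0.071 without the trend, not called. Of 6 nucleotide sugar carriers of the Golgi and their relatives, Slc35b4 was 0.14 higher (adjusted p = 0.00157), Slc35e2 0.069 higher (adjusted p = 0.0427) and Slc35a3 at -0.18 lower (adjusted p = 0.00092). Without the trend Slc35b4 at 0.16 and Slc35e2 at 0.083 were still called, and Slc35a3 at -0.045 was not. The call of Slc35e2 was lost when any 1 of 11 libraries was left out (HF-HI replicates 2, 3, 4, 5, 9 and 10 and Sham replicates 2, 3, 8, 9 and 10), at differences from 0.054 to 0.070.

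Neither carrier for lactate and pyruvate passed the test in the deposited values. Slc16a1 (MCT1), found in endothelium and glia, differed by -0.074 (adjusted p = 0.195) and Slc16a7 (MCT2), the neuronal form, by -0.039 (adjusted p = 0.514). Both were named after their values had been seen, as the only members of their class. Slc16a7 was called higher without the GC trend, at 0.10 (adjusted p = 0.0196), and Slc16a1 turned to 0.0072 and was not called. Of 4 partner genes 3 were measured, and Ldha, the lactate dehydrogenase subunit of glycolytic cells, was 0.20 lower, or 0.28 lower without the trend, where 2 of the 3 were lower.

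In the map of 49 of the 51 members past the threshold, HF-HI replicate 9 is the library least like its group. Without it 35 members were higher and 19 lower, against 33.9% and 34.8% of all genes. Markers of other cell types were checked as lists. Oligodendrocyte markers (6 of 6 measured) had 1 higher and 5 not called, with a median of -0.013, and 1 higher and 2 lower without the GC trend. Of 6 microglial markers 2 were measured, among them Csf1r (0.13, or -0.0038 and not called without the trend), and of 5 endothelial markers only Flt1 (0.28, or 0.27). Ttr, a marker of choroid plexus, ran from 6.16 to 13.3 over all libraries without a difference between the groups that passed the test (-0.039). None of the 4 markers listed for cerebellum or thalamus was among the genes of the table. The rule by which genes entered the table is not stated, so tissue from these regions could not be checked. The part of these other cell types in the members' values was not tested.

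**Figure D4:**
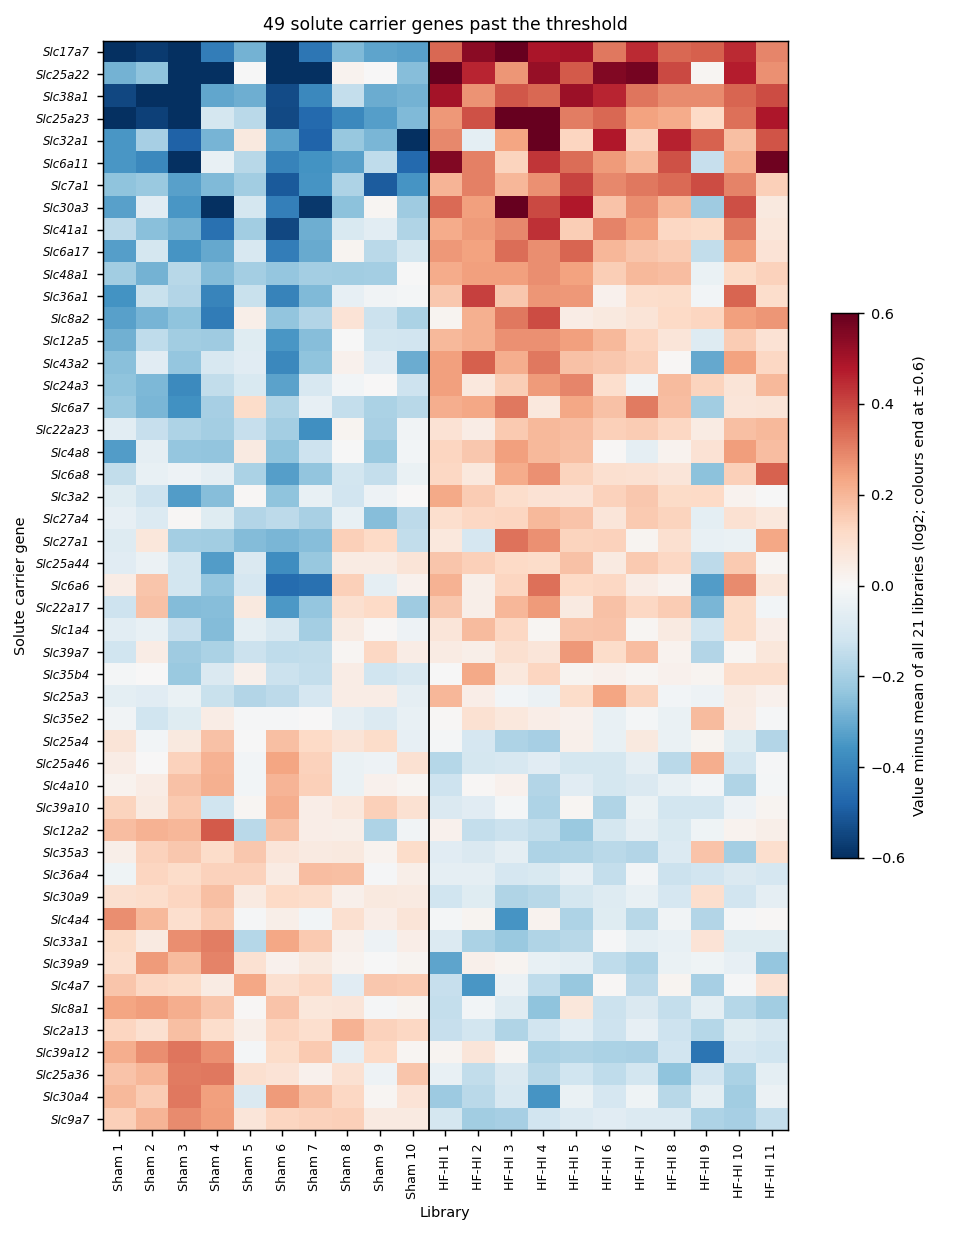
Value minus the mean of all 21 libraries (log2, colour scale ending at ±0.6) of 49 solute carrier genes past the threshold (rows, ordered by their difference from 0.89 for Slc17a7 to -0.28 for Slc9a7) in each library (columns, 10 Sham at left and 11 HF-HI at right). HF-HI replicate 9 is paler or blue in many of the higher genes.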

How the data were processed

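RNA-seq libraries of cortex from 21 mice (10 Sham, 11 HF-HI) were analysed, with groups and replicate numbers from the labels. Per the study's methods, the authors aligned reads to mm10 with STAR, counted them per transcript with eXpress, and deposited variance-stabilized log2 values from DESeq2, with low-count outliers removed by Cook's distance. The versions of STAR and eXpress and the gene annotation are not given in the sources used here, and counts were not analysed here.

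Symbols, coordinates and exonic GC content came from GENCODE vM21 (5539 of 5544 genes matched) and promoter windows from RefSeq (GRCm38.p6). HF-HI was tested against Sham by limma (version 3.58.1, R version 4.3.3; lmFit, then eBayes with a trend, two-sided, Benjamini-Hochberg adjusted over all genes). Tables and plots were made in Python 3.11.15 (pandas 2.3.3, scipy 1.17.1, numpy 2.4.6, matplotlib 3.10.9). The GC trend was a lowess curve (span 0.3) fitted in each library to the deviations from the gene means.

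The members, classes and lists were chosen with earlier results of these data known. Named are all vesicular, glucose, cation-chloride and zinc members, in each other class up to 3 called members per direction with the largest differences, every member without overlap, and up to 3 partner genes per list, except a few genes that are not reported here. Genes outside this rule, and the pairs of genes, were chosen after their values were seen. The alternatives were a threshold of 0.1, a minimum absolute difference of 0.25, the Wilcoxon rank-sum test, limma with no mean-variance trend, quantile normalization, centred library medians, a block for replicate number, removal of the GC trend with or without that block, omission of genes in the lowest quartile of mean value, and leave-one-out fits for all 21 libraries.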

Additional observations from a re-analysis of the deposited data

Results flagged for a closer look

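In 1 of the 49 named members a Sham library stood apart from the other 9. In Slc48a1, the heme carrier, Sham replicate 10 was at 9.61, and the nearest other Sham library was at 9.44, so the gap took 0.585 of the range of the group. The library was flagged because this gap is wider than Dixon's criterion for 10 values allows, and chance flags about 1 in 20 groups. The HF-HI group, with 11 libraries, was not examined in this way.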

How the results depend on the processing

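With a minimum absolute difference of 0.25, 20 members were higher and 5 lower, where 17.8% of all genes were higher and 8.04% lower. With library medians centred, 27 were higher and 29 lower, where 26.1% of all genes were higher and 42.9% lower. The share of higher among called members went from 62.7% to 48.2%, while the median of all genes moved from -0.0086 to -0.061. Under quantile normalization that share was 52.7%, where 27.9% of all genes were higher and 40.4% lower. Without the lowest quartile of mean value 62 members were left, 23 higher and 14 lower, against 32.4% and 35.0% of all genes in that fit. The median of the zinc members moved there from -0.054 to -0.18. The median of the vesicular members was 0.28 with the GC trend removed and the replicate block. The difference changed sign in 22 of 93 members with the GC trend removed. Among members named by the rule, the sign reversed with the GC trend removed, and with the trend removed and the block (second value), for Slc2a1 (-0.092, -0.098), Slc27a1 (-0.0048, -0.026), Slc22a17 (-0.044, -0.041), Slc30a7 (0.025, 0.017), Slc30a5 (0.041, 0.047) and Slc39a7 (-0.080, -0.088), and with medians centred for Slc2a1 (-0.0074). The cause was not tested.

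Same-numbered mice of the 2 groups did not deviate together. Their correlations ran from -0.310 to 0.364 over 10 pairs (median -0.135), with 0 of 10 best with its own number. The numbers were therefore not taken as a pairing. The replicate block gave 29 higher and 19 lower, against 31.4% and 31.7% of all genes. Leaving out each library gave 30 to 35 higher and 19 to 20 lower, against 31.7% to 33.9% and 32.6% to 34.8% of all genes. The counts were 35 and 20 at a threshold of 0.1 (35.5% and 37.2% of all genes) and 32 and 19 without a trend (32.7% and 33.7%). By the Wilcoxon test they were 30 and 19, against 31.8% and 33.4% of all genes. The unknown depth leaves the limit for low genes unstated, and the smallest changes called were near 0.07.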
